A study of Ovis aries with 9 samples.

Results

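Virgin sheep hepatocytes with much RNA of the interferon-stimulated gene ISG15 were set against virgin hepatocytes with little or none. The 531 cells of the virgin sample, out of 3404 cells in the whole series, were ranked by log2(CPM + 1) of ISG15, where CPM is counts scaled to 1000000 on named genes in that cell. The 1 in 4 cells that ranked highest (132 cells, the ISG15-high arm) and the 1 in 4 that ranked lowest (132 cells, the ISG15-low arm) were compared, with ties taken in column order. The cells were selected on ISG15 values, so the level of ISG15 is a description and was left out of every count of genes. The virgin sample is 1 sample, so its contrast carries no test, and every test below was made in the 8 other stages, whose cells the choice did not use.

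ISG15 is a small ubiquitin-like protein that is joined to other proteins after a cell has met interferon. Type I interferons bind the receptor pair IFNAR1 and IFNAR2, the kinases JAK1 and TYK2 then activate a transcription factor complex that holds STAT2 and IRF9, and this switches on the interferon-stimulated genes, among them sensors of viral RNA and proteins that block viral growth. Hepatocytes carry this receptor and respond to it, and in ruminants the early conceptus itself secretes a type I interferon, interferon tau.

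Liver cells of ewes (Ovis aries, all labelled female) make up the series, with 1 sample for each stage: virgin, gestation days 40 to 50, 50 to 70, 70 to 80, 90 to 100, 100 to 120 and 140 to 150, and lactation on days 7 and 15 after birth. Livers came from slaughtered animals and were kept cold, cells were freed with collagenase and picked singly by hand, and each cell had its own full-length Smart-seq3xpress library. No genotype, strain, treatment or age is given for any group, and it is not stated which cells came from which animal. A p-value here therefore reflects the spread between stages alone, which may be technical. No count profile was the same in any 2 cells, and the columns carry no barcodes. The virgin sample held 261815503 counts on named genes, and the other stages held 246 to 553 cells each.

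Reads per cell differed little between the arms. The ISG15-high cells had a median of 453750 reads (55694 to 1286508) and 6657 genes detected, and the ISG15-low cells had 431074 reads (42322 to 1647264) and 6573 genes, a ratio of reads of 1.05. Across the 531 cells the Spearman correlation of ISG15 with reads per cell was -0.01. In the 8 other stages the same ratio of median reads ran from 0.742 to 1.38, with a geometric mean of 1.09 and a ratio above 1 in 6 of 8 stages (two-sided exact sign-flip permutation test over stages, p = 0.219, where 0.00781 is the smallest p that 8 stages allow). Without the stage of days 90 to 100, the one with the lowest ratio, the mean was 1.16 (exact permutation p = 0.0312). The ratio of median genes detected in the 8 stages ran from 0.922 to 1.28, with a geometric mean of 1.08. It was above 1 in 6 of 8 stages (exact sign-flip permutation test, p = 0.0781).

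Within the arms ISG15 itself ranged widely. In the ISG15-low arm 41 of 132 cells had no ISG15 read, the median was 4.84 CPM and the highest cell stood at 22.1 CPM, just inside a boundary whose next cell stood at 23.0 CPM. In the ISG15-high arm the lowest cell stood at 284.2 CPM, just above a cell at 283.6 CPM outside it, the median was 540.1 CPM and the highest cell reached 4299 CPM. Both boundaries fell within a continuous range of values. Summed over the cells, ISG15 stood at 722 CPM in the high and 6.93 CPM in the low arm.

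The arms did not draw evenly on the virgin sample. When the cells were taken in the order of the numbers in their names, expression of genes outside the interferon lists stepped sharply at 3 places and split the sample into 4 runs of consecutive numbers: 1 to 80, 81 to 159, 160 to 278 and 279 to 531. The labels do not say what a run is. The median ISG15 level was 28.8 CPM in run 1, 13.9 in run 2, 380.0 in run 3 and 86.8 in run 4. Of the 132 ISG15-high cells, 75 came from run 3, 52 from run 4, 4 from run 2 and 1 from run 1. Of the 132 ISG15-low cells, 50 came from run 2, 46 from run 4, 35 from run 1 and 1 from run 3. Median reads per cell were 695927, 478885, 521808 and 360885 in runs 1 to 4. Any difference between runs, whatever its source, thus enters the comparison of the arms. Ratios from all cells are therefore mostly followed by the ratio from arms cut inside every run (20, 19, 29 and 63 cells a side in runs 1 to 4) and then summed. That second split was chosen after the data had been seen. Its top arms had median ISG15 levels of 137, 83.9, 926 and 428 CPM in runs 1 to 4. Its bottom arms had medians of 0, 0, 88.6 and 12.2 CPM. Over all cells the medians of the arms were 540.1 and 4.84 CPM. The 2 splits thus set different ISG15 levels against each other. Whether a smaller ratio inside the runs comes from the runs or from these levels was not tested.

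**Figure D1:**
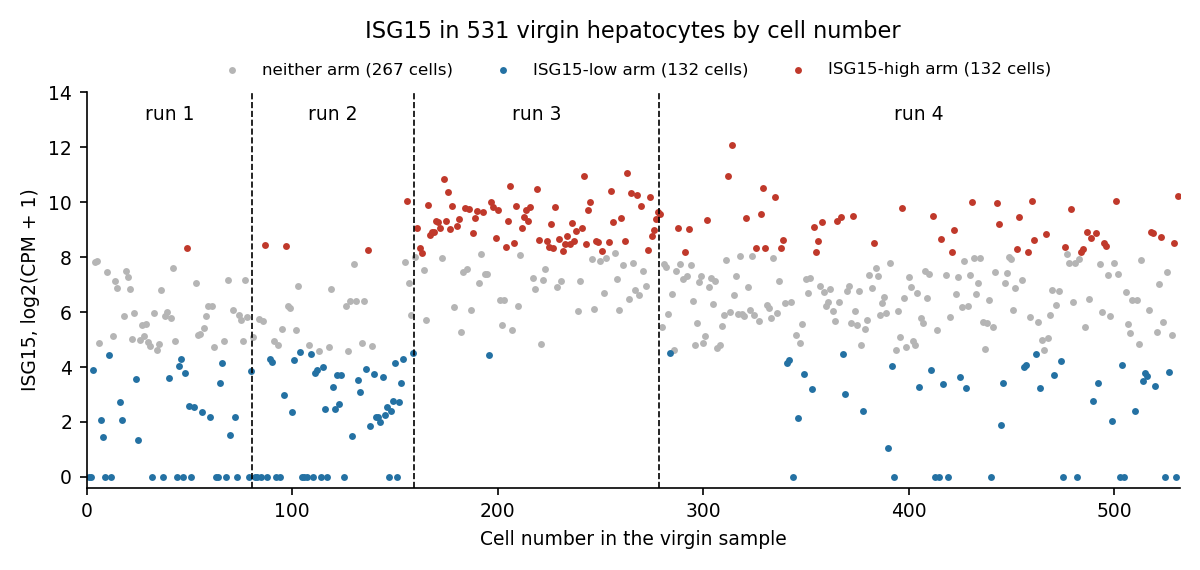
ISG15 as log2(CPM + 1) (vertical axis) in each of the 531 virgin cells by cell number (horizontal axis), with the ISG15-high arm in red, the ISG15-low arm in blue, the other cells in grey and dashed lines between the 4 runs. Run 3 holds 75 of the 132 red cells and 1 of the 132 blue cells, and run 4 holds both kinds, 52 red and 46 blue.

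The label of hepatocyte held in both arms. All 13 hepatocyte markers were present, and their summed level ran from 65479 to 297620 CPM a cell (median 199560) in ISG15-high cells and from 51775 to 300040 CPM (median 171510) in ISG15-low cells. The summed markers of lymphocytes, neutrophils, dendritic, endothelial, stellate, bile duct and red cells had a median of 0 CPM a cell in both arms, with single cells of up to 394 CPM (endothelial) in the high and 1547 CPM (stellate) in the low arm. Macrophage markers summed to a median of 13.3 CPM in ISG15-high cells (highest cell 341) and 10.6 CPM in ISG15-low cells (highest cell 1905), and 1 of the 11 measured was at 0 in both arms. The pan-leukocyte marker PTPRC had reads in 9.85% of ISG15-high and 6.06% of ISG15-low cells. Leaving out the 49 virgin cells with any PTPRC read left the median log2 ratio of the interferon genes at 0.67.

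Antiviral effectors, the proteins that block viral entry, copying and translation, were the group with the largest median difference among the interferon lists. The reads of all cells in an arm were added up, and the 2 sums were put on one CPM scale by TMM, a trimmed-mean scaling. Of 68 effector symbols sought 44 were found in the count table (the OAS and IFITM1 symbols were not among them), and 39 reached 5 CPM on the mean of the arms, 36 of them were higher in ISG15-high cells and 27 were at least 2-fold higher, with 1 at least 2-fold lower. Across all 8406 genes of that level other than ISG15, 4399 were higher, and 4568 inside the runs. Of the 8406, 234 were at least 2-fold higher (2.78%) and 307 at least 2-fold lower (3.65%). Counts for the lists below stand beside these numbers. Of the 39, 10 reached 5 CPM in the ISG15-high arm alone, so the filter fixed their direction. Of the 29 that reached it in both arms, 26 were higher and 17 at least 2-fold, beside 144 of 7832 for all such genes, with a median of 1.19 (0.56 inside the runs). The median log2 ratio of all 39 was 1.29, beside 0.02 for all genes. With arms cut inside the runs all 39 effectors had a median of 0.64 and 35 of 39 were higher, beside a median of 0.03 for all genes. The median of the 39 was 0.50, 0.59, 0.74 and 0.66 in runs 1 to 4 taken singly. In each run it was smaller than over all cells. These values include the 10 that passed through the ISG15-high arm alone, and no median of single runs is given for the 29.

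MX1, a GTPase that traps viral nucleoproteins, is the effector with the fullest record. It was at 0 CPM in the lowest, 139 in the median and 1117 in the highest ISG15-high cell, and at 0, 7.42 and 191 CPM in ISG15-low cells. The 2 sets of cells overlapped, but the medians lay far apart. Summed, MX1 stood at 184 CPM (181 to 187, exact 95% Poisson interval, which covers counting error only) against 22.8 CPM (21.7 to 24), a ratio of 8.06. The log2 ratio was 3.01 over all cells, 1.96 inside the runs, and 1.53, 3.08, 1.83 and 2.0 in the single runs. Reads of MX1 were found in 97.7% of ISG15-high and 65.2% of ISG15-low cells, and in 95.8% and 59.3% after each cell had been thinned to 155164 reads (118 cells kept and 14 left out in each arm).

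The IFIT proteins bind viral RNA that lacks the cap structure of host messages, and 3 of the 4 described had no reads in many cells. IFIT5 was the exception, with reads in 100% of ISG15-high and 92.4% of ISG15-low cells at 109.8 against 48.1 CPM (log2 ratio 1.19, 0.69 inside the runs). IFIT1 stood at 36.1 against 0.458 CPM (log2 ratio 6.30, and 2.66 inside the runs), with reads in 54.5% of ISG15-high and 9.09% of ISG15-low cells (51.7% and 4.24% after thinning). IFIT3 stood at 32.3 against 0.587 CPM (log2 ratio 5.78, 5.46 inside the runs), with reads in 28.8% and 4.55% of cells. The median ISG15-high cell had 3.03 CPM of IFIT1 and 0 CPM of IFIT3, and 1 cell gave 31.4% of its IFIT3 reads. IFIT2, which binds AU-rich RNA, stood at 16.7 against 1.52 CPM (3.46, 2.64 inside the runs). RSAD2, or viperin, whose product stops viral RNA chains, showed the same form, at 17.4 against 0.616 CPM (log2 ratio 4.82, 4.83 inside the runs) with reads in 27.3% and 7.58% of cells. MX2, a relative of MX1, stood at 16.9 against 0.143 CPM (log2 ratio 6.89, 3.60 inside the runs), but runs 1 and 2 had 0 and 0.0976 CPM of it in all, and so could not be compared there.

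CMPK2, EPSTI1, IFI44 and PARP14 were detected in over 58% of the cells of both arms and differed by less. CMPK2, a mitochondrial nucleotide kinase whose gene lies beside RSAD2, was at 78.0 against 17.2 CPM (log2 ratio 2.18, 1.39 inside the runs) and was higher in ISG15-high cells of all 4 runs. EPSTI1 had a log2 ratio of 1.78 (1.06 inside the runs), IFI44 2.01 (1.15), its relative IFI44L 3.90 (1.66), RTP4 2.0 (1.68) and the ADP-ribosyltransferase PARP14 1.89 (1.01). IFI6, a small mitochondrial protein, was at 1072 against 493 CPM, with 1.12 over all cells and 0.31 inside the runs. The 3 effectors not higher were STOM, TOR1B and SAMHD1. The membrane protein STOM was lower in ISG15-high cells (-1.32, -0.74 inside the runs), TOR1B stood at -0.32 (-1.19), and the nucleotide hydrolase SAMHD1 at -0.10 (-0.07), while the peptidase LAP3 had 0.04 (0.03).

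The enzymes that attach and remove ISG15 were higher in part. HERC6, the main ISG15 ligase of mice, stood at 98.4 against 14.9 CPM (log2 ratio 2.73), with a median of 73.9 CPM in ISG15-high cells and 0 in ISG15-low cells. Its level over all cells of a run was 10.3, 7.49, 99.6 and 48.0 CPM in runs 1 to 4, and inside the runs the log2 ratio was 0.81, above 0 in all 4. USP18, which strips ISG15 from proteins and also blocks the IFNAR2 chain, had 80.9 against 21.9 CPM (1.88, 1.41 inside the runs), although 1 cell gave 46.4% of the ISG15-low reads. HERC5, the human ligase, had a log2 ratio of 1.12 (0.49 inside the runs) at 8.08 against 3.72 CPM. It reached 5 CPM in the ISG15-high arm alone, so the filter fixed its direction over all cells. The conjugating enzyme UBE2L6 differed little, at 179.8 against 157 CPM (0.19, 0.49 inside the runs), and the ligase TRIM25 and the protease USP16 stood at 0.00 (-0.01) and 0.00 (-0.14).

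Sensors of foreign RNA and DNA were mostly higher as well. Among 10 sensor genes of 5 CPM, 9 were higher in ISG15-high cells and 5 at least 2-fold. Only RIGI reached 5 CPM in the ISG15-high arm alone, so the filter fixed its direction. Of the 9 that reached it in both arms, 8 were higher and 4 at least 2-fold. The median of these 9 was 0.16 (0.48 inside the runs), beside 0.71 (0.51) for all 10. RIGI, which senses short double-stranded RNA ends, was at 24.4 against 4.67 CPM (log2 ratio 2.39, 1.37 inside the runs). IFIH1, or MDA5, which senses long double-stranded RNA, was at 79.3 against 29.6 CPM (1.42, 0.91). DHX58, their regulator, had 1.32 (1.45), ZNFX1 2.09 (1.11) and the RNA-activated kinase EIF2AK2 1.25 (0.53). The adaptor MAVS had -0.39 (-0.28), the kinase TBK1 0.12 (0.20) and the endosomal sensor TLR3 0.11 (-0.26).

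The receptor chains and kinases that carry the signal were not higher by 2-fold, and 3 of these 4 genes were lower. Of 13 receptor and signalling genes of 5 CPM, 7 were higher in ISG15-high cells and 2 at least 2-fold, USP18 among them. The median of the 13 was 0.07, and 4399 of all 8406 genes were higher. IFNAR1 was at 16.8 against 15.3 CPM (log2 ratio 0.14, -0.09 inside the runs) and IFNAR2 at 12.9 against 19.9 CPM (-0.63, -0.72). JAK1 had -0.60 (-0.29) and TYK2 -0.54 (-0.47). Downstream of them STAT2 was higher, at 45.3 against 30.2 CPM (0.59, 0.42 inside the runs). IRF1, the first factor of the interferon gamma response, had -0.78 over all cells and 1.11 inside the runs at 5.60 against 9.62 CPM.

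Antigen presentation differed by little. Of 13 genes of 5 CPM, 10 were higher in ISG15-high cells, none of them 2-fold, and the median log2 ratio of 0.38 went to 0.06 inside the runs. Only TAP1 reached 5 CPM in the ISG15-high arm alone, so the filter fixed its direction. Of the 12 that reached it in both arms 9 were higher, beside 4138 of 7832 for all such genes. The median of these 12 was 0.36 (0.04 inside the runs). CD74, the chaperone of class II molecules, was at 11.1 against 26.1 CPM (-1.24, -1.66 inside the runs), but 1 cell gave 32.3% of the ISG15-low reads, the median cell had 1.74 against 0 CPM, and runs 3 and 4 had 1.92 and 0.34. The class I light chain B2M was at 158 against 116 CPM (0.44, 0.01 inside the runs), the peptide pump TAP1 at 5.66 against 4.35 CPM (0.38, 0.31) and the immunoproteasome subunit PSMB9 at 15.2 against 8.40 CPM (0.86, 0.17). Of the interferon gamma and guanylate-binding list only WARS1 reached 5 CPM (-0.20, -0.18 inside the runs). Over the 6 interferon lists together, 66 of 80 genes were higher in ISG15-high cells and the median log2 ratio was 0.67, or 0.43 with 62 of 80 higher inside the runs. Of the 80, 13 reached 5 CPM in the ISG15-high arm alone, and the other 67 had a median of 0.46 (0.31 inside the runs) with 53 higher. Of the 80, 30 were higher in the ISG15-high arm of each of the 4 runs, beside 8.11% of all genes. That count includes the 13 whose direction over all cells the filter fixed, and no such count is given for the other 67.

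**Figure D2:**
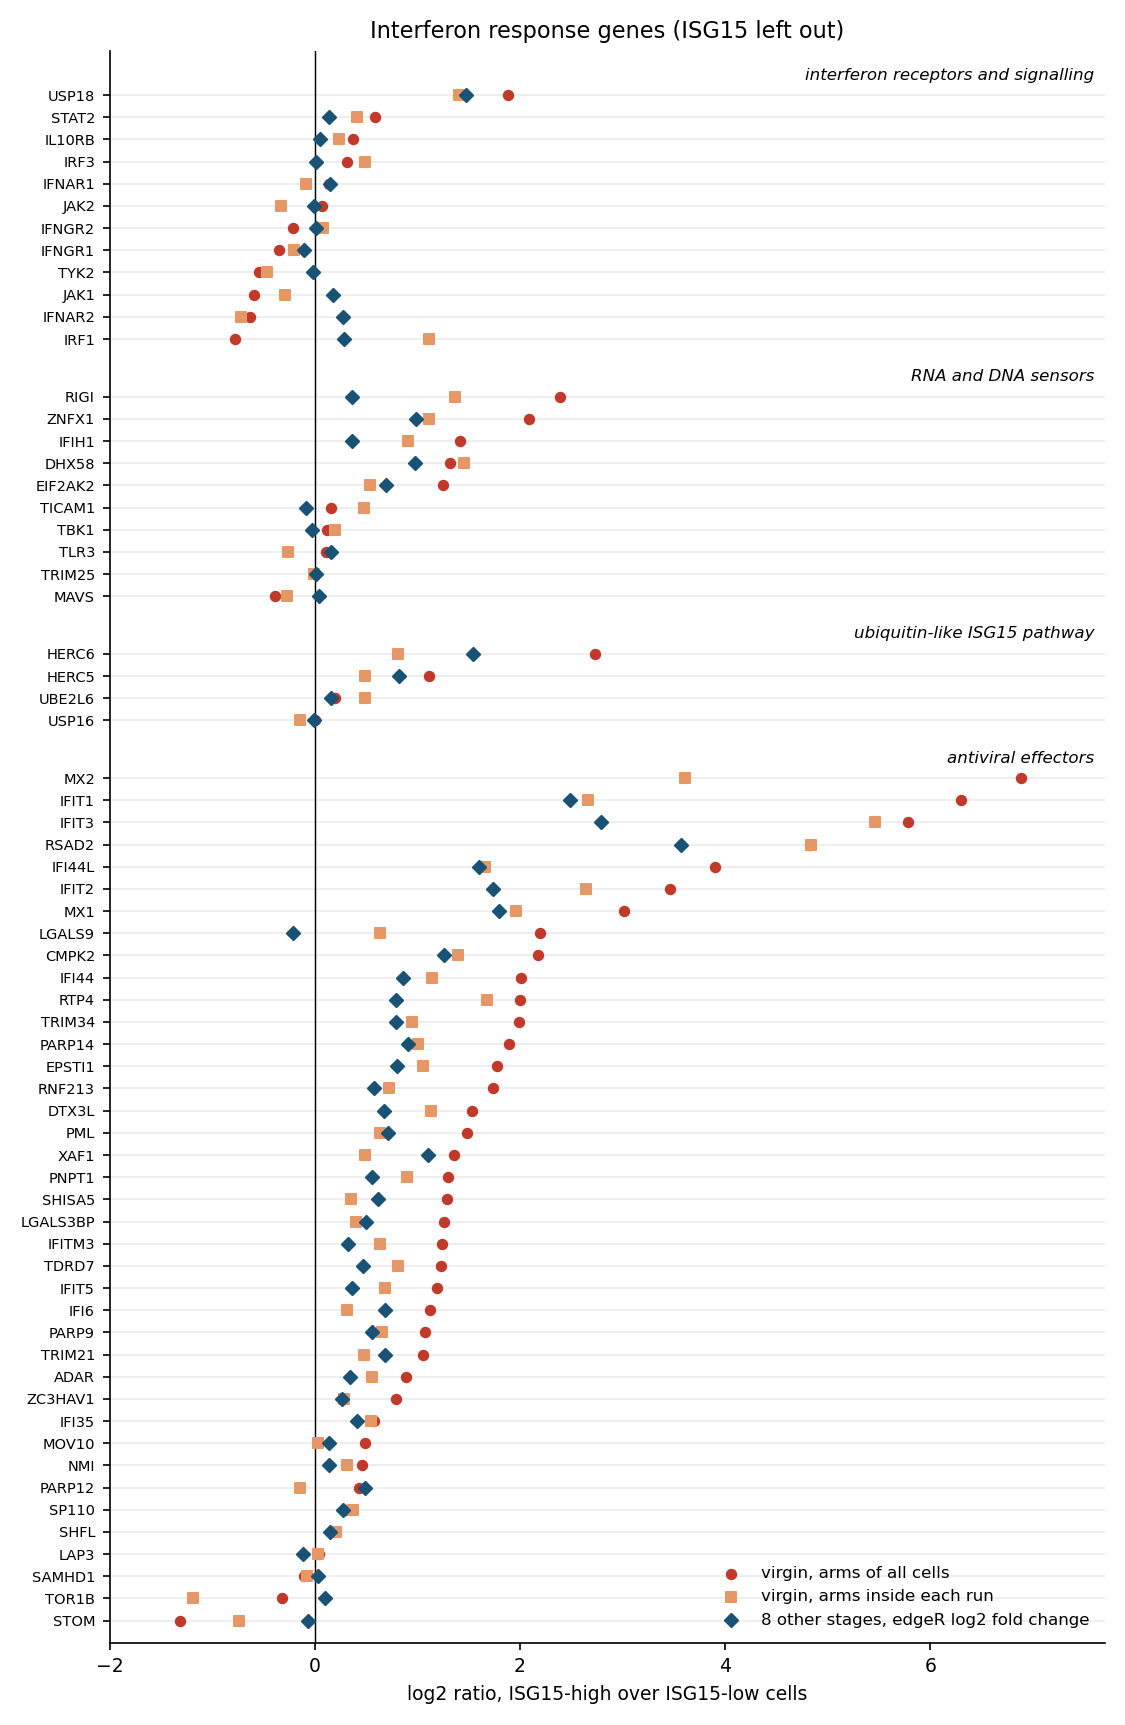
Log2 ratio of ISG15-high over ISG15-low cells (horizontal axis) for interferon receptor, sensor, ISG15 pathway and effector genes of at least 5 CPM (rows, 1 gene not shown), with red circles for arms of all virgin cells, orange squares for arms inside the runs and blue diamonds for the edgeR log2 fold change in the 8 other stages. IFNAR1 lies at 0.14, -0.09 and 0.15, while MX1 lies at 3.01, 1.96 and 1.80.

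Cell by cell, ISG15 moved with the other genes of this group. The mean log2(CPM + 1) of 51 genes, the effectors and the conjugation genes without ISG15, had a median of 3.55 in ISG15-high cells (2.09 to 6.0) and 2.48 in ISG15-low cells (1.49 to 3.81). Of the 132 cells highest in that mean, 78 were ISG15-high (59.1%) and 4 were ISG15-low. Across 481 virgin cells thinned to equal reads its Spearman rho with ISG15 was 0.61, and it was 0.40, 0.34, 0.69 and 0.32 in runs 1 to 4 (72, 71, 112 and 226 cells). These are descriptions of cells that share a sample, and run 3 had the tightest relation.

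The genes most like ISG15 across thinned virgin cells, by Spearman rho over 481 cells among 8279 genes with reads in at least 25% of them, were of 2 sorts. MX1 (0.54), HERC6 (0.55), EPSTI1 (0.46), USP18 (0.46) and CMPK2 (0.42) kept part of it inside the runs, with a mean over the 4 runs of 0.42, 0.29, 0.31, 0.25 and 0.29. RTP3, a liver relative of the interferon-stimulated RTP4, did so too (0.43, 0.22 inside the runs), and stood at 80.7 against 10.7 CPM in the arms (log2 ratio 2.91, 1.49 inside the runs and above 0 in all 4). ANGPTL8, an insulin-induced inhibitor of lipoprotein lipase (0.45), PPP1R3B, which targets phosphatase to glycogen (0.43), and SULT1C2, a sulfotransferase (0.37), went to 0.13, 0.05 and -0.06. Of the 5 genes with the lowest rho, PDK4, the kinase that shuts pyruvate dehydrogenase, went from -0.41 to -0.01, TPT1 from -0.41 to 0.02 and SOCS2 from -0.39 to -0.08.

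Several genes without a name differed in the same direction and are named after their values were seen. LOC105602911 was at 246 against 56.3 CPM (log2 ratio 2.13, 1.17 inside the runs), with a rho of 0.60 with ISG15 across cells (0.41 inside the runs). Its neighbour in the RefSeq gene order of assembly ARS-UI_Ramb_v3.0, LOC101112122, was at 91.2 against 4.14 CPM (4.46, 2.16). A second set lies between DDX24 and PPP4R4 in that order, all annotated as protein-coding. There LOC101117703 stood at 1356 against 272 CPM (2.32, 0.70), LOC114108618 at 924 against 207 (2.16, 0.66), LOC121817120 at 761 against 147 (2.37, 0.78) and LOC105603225 at 325 against 83.2 (1.97, 1.00). Whether neighbours of one set share reads as copies was not tested, which leaves the single values uncertain.

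The same ranking by ISG15 was then applied inside each of the 8 gestation and lactation samples, where it can be tested. The arms are relative to their own stage, and their ISG15 levels differed from those of the virgin arms. Medians of the ISG15-high arms ran from 18.1 CPM in days 90 to 100 to 291 CPM on lactation day 7. The virgin median was 540.1 CPM. In days 90 to 100, 100 to 120 and 40 to 50 the lowest ISG15-high cell stood at 4.86, 10.6 and 20.9 CPM. Each lay below 22.1 CPM, the highest virgin ISG15-low cell. Arms of each stage were summed, and edgeR's quasi-likelihood test with stage as a term was fitted to 13764 genes other than ISG15. At a Benjamini-Hochberg adjusted p under 0.05 it called 3 genes higher in ISG15-high cells (0.0218% of those tested) and 0 lower (0%). At an unadjusted p under 0.05 there were 329 higher (2.39%) and 317 lower, and DESeq2 called 23 higher and 11 lower. In days 40 to 50, 50 to 70, 90 to 100 and 100 to 120, 50.9%, 33.2%, 62.1% and 60.1% of cells had no ISG15 read, so the column order set which of them formed the low arm. Each of the 8 stages also held 2 to 4 runs of cell numbers by the same search, and the arms often drew on them unevenly. In days 100 to 120 runs 1 to 4 gave 18, 70, 0 and 0 ISG15-low cells and 24, 17, 41 and 6 ISG15-high cells. In days 40 to 50 runs 1 and 2 gave 64 and 8 ISG15-low cells and 17 and 55 ISG15-high cells. On lactation day 15 the draw was more even, with 49, 23, 16 and 50 ISG15-low and 46, 18, 16 and 58 ISG15-high cells. Differences between runs thus enter this contrast too.

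MX1 rose in ISG15-high cells of all 8 stages. It stood at 35.8, 66.7, 101, 25.2, 36.4, 92.0, 52.9 and 42.1 CPM in days 40 to 50, 50 to 70, 70 to 80, 90 to 100, 100 to 120 and 140 to 150 and on lactation days 7 and 15, against 11.6, 21.1, 17.8, 8.11, 12.6, 12.4, 21.2 and 17.8 CPM in the ISG15-low cells of the same stages. The lowest ISG15-high value, 25.2 CPM, lay above the highest ISG15-low value, 21.2 CPM. The means were 56.5 ± 27.7 and 15.3 ± 4.81 CPM (SD, n = 8 stages), and edgeR put the log2 fold change at 1.80 (SE 0.18, adjusted p = 0.00196). MX1 was called in each of the 22 fits made, 1 of which ranked cells by a mean that contains MX1.

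CMPK2 and LOC105602911 were the other genes called. CMPK2 stood at 35.4 ± 18.6 against 14.6 ± 6.56 CPM (SD, n = 8; log2 fold change 1.26, SE 0.18, adjusted p = 0.0480, edgeR), higher in 8 of 8 stages, with a median of 30.5 against 13.5 CPM. The stages overlapped, from 17.9 to 64.4 CPM in ISG15-high and from 6.49 to 24 CPM in ISG15-low cells. LOC105602911 stood at 117 ± 60.8 against 40.9 ± 20.0 CPM (1.50, SE 0.20, adjusted p = 0.0308, edgeR) and was higher in 8 of 8 stages. Both calls are narrow, since CMPK2 was called in 11 and LOC105602911 in 12 of the 22 fits, though neither changed direction in any. A single fit of these 11 ranked cells by a mean that contains CMPK2. With ties in reverse order both lost the call (adjusted p = 0.243 for CMPK2 and 0.129 for LOC105602911, edgeR), and with arms inside the runs CMPK2 did (0.87, adjusted p = 0.0556, edgeR). CMPK2 lost its call in 6 and LOC105602911 in 5 of the 8 fits that left out 1 stage, with adjusted p up to 0.241 for CMPK2 and 0.14 for LOC105602911, both without lactation day 7 (edgeR).

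**Figure D3:**
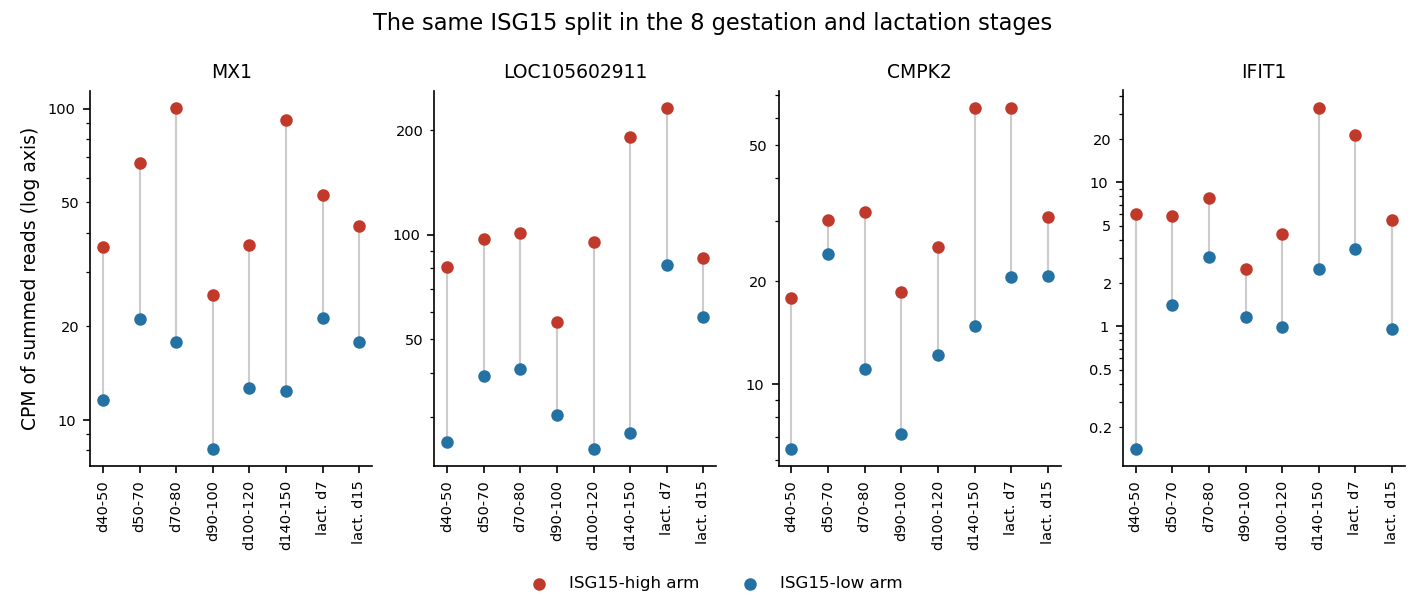
CPM of summed reads on a log axis (vertical) in the ISG15-high (red) and ISG15-low (blue) arm of each of the 8 other stages (horizontal) for the 3 called genes and IFIT1, with a grey line joining the arms of a stage. The red point lies above the blue one in every stage for each of the 4 genes, and for MX1 the lowest red point (25.2 CPM) lies above the highest blue one (21.2 CPM).

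Effectors that were not called mostly pointed the same way. Of 38 effectors tested, the called MX1 and CMPK2 included, 35 had a log2 fold change above 0, beside 7027 of all 13764 genes. An unadjusted p under 0.05 (edgeR) in that direction was found for 26, against 2.39% of all genes, with 0 in the other direction. The median of the list was 0.57, beside 0.01 for all genes. IFIT1 had 2.49 (SE 0.39, adjusted p = 0.0721, edgeR, higher in 8 of 8 stages), and it was called with arms inside the runs (1.84, adjusted p = 0.00984, edgeR). RSAD2 had 3.57 (SE 0.71) and XAF1 1.10 (SE 0.22), both higher in 8 of 8 stages with an adjusted p of 0.268 and 0.268 (edgeR). USP18 had 1.47 (SE 0.29, adjusted p = 0.268, edgeR) and was called inside the runs (1.10, adjusted p = 0.0448, edgeR), as was EPSTI1 (0.70, adjusted p = 0.0356, edgeR). IFNAR1 had 0.15 (SE 0.13), JAK1 0.18 (SE 0.13), B2M 0.04 (SE 0.12) and RTP3 0.47 (SE 0.14), none of them called.

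The reverse split was tested too. When the cells of the 8 stages were divided by the mean of the 51 other interferon genes, ISG15 rose in the upper arm by 2.33 on the log2 scale (SE 0.31; edgeR, adjusted p = 0.00667). The virgin sample divided in that way had 495 against 44.5 CPM of ISG15. For this split the mean was taken without thinning the cells, and no comparison of reads or genes detected between its arms is given. TOP2A, a gene of dividing cells, was called in the same fit (log2 fold change 3.91), so the split did not sort cells by interferon genes alone. The Spearman rho of ISG15 with that mean across thinned cells ran from 0.21 to 0.67 over the 8 stages (median 0.34), beside 0.61 in the virgin sample, and whether virgin cells differ from them in this was not tested.

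Outside the interferon lists the difference between the virgin arms was large. Much of it was absent with arms inside the runs, whose ISG15 levels differ as given above. Of the 234 genes at least 2-fold higher, 36 were interferon genes, and of the 307 at least 2-fold lower, 2 were. Of the 80 interferon genes, 13 reached 5 CPM in the ISG15-high arm alone, so the filter fixed their direction. Among genes that reached 5 CPM in both arms, 144 were at least 2-fold higher, 24 of them interferon genes. At least 2-fold lower were 167, with 2 interferon genes. With arms inside the runs 88 of 8433 genes were at least 2-fold higher (1.04%) and 157 lower (1.86%). The higher sets shared 42 genes, 17.9% of the set from all cells and 47.7% of the other, and 17 of these 42 were interferon genes. The lower sets shared 94. Scaled by total reads alone, the median log2 ratio of all genes went from 0.02 to -0.13, and the split from 234 higher and 307 lower to 168 and 418.

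**Figure D4:**
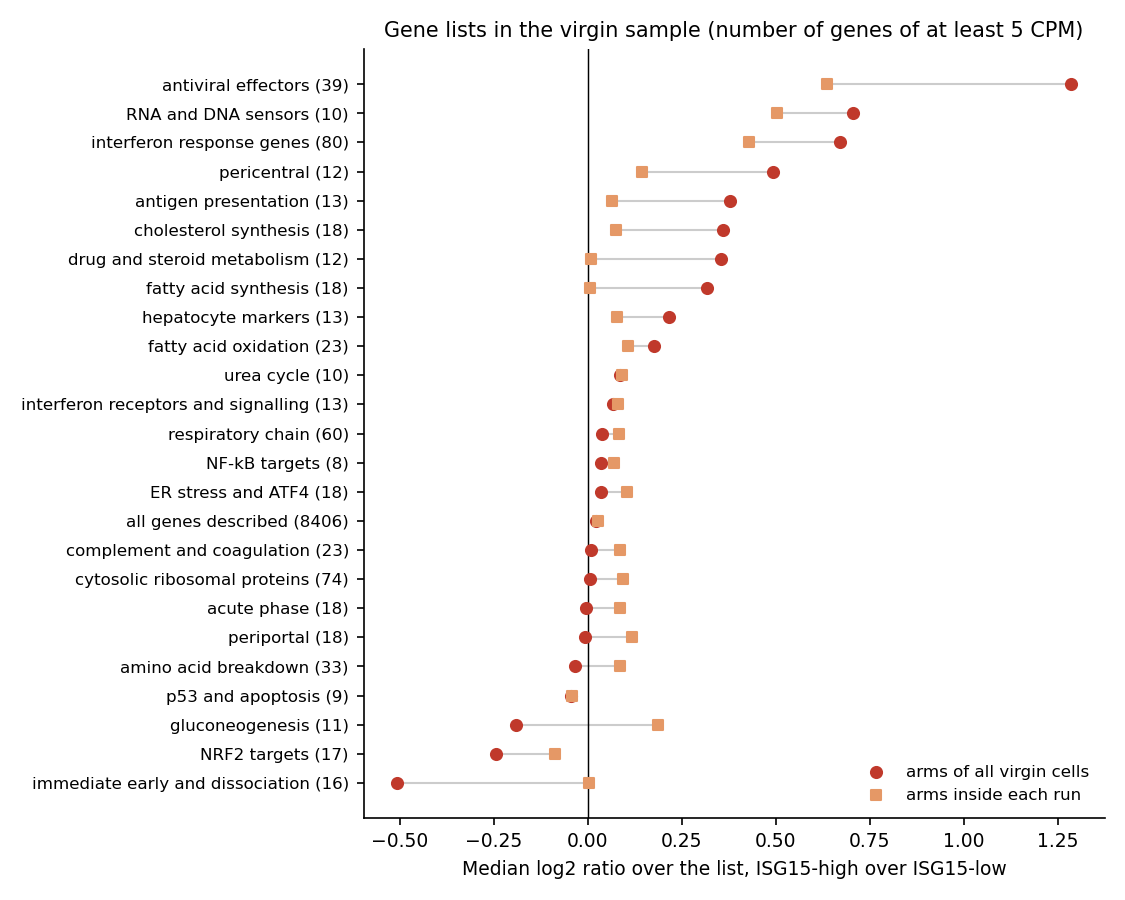
Median log2 ratio of ISG15-high over ISG15-low virgin cells (horizontal axis) for each gene list with at least 8 genes of 5 CPM (rows, with that number), from arms of all cells (red) and from arms inside the runs (orange), with the proliferation list left out of the plot because its ratios rest on few cells. Antiviral effectors keep 0.64 of 1.29, while the immediate early genes go from -0.51 to 0.00.

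Of 11 gluconeogenesis genes 3 were higher in ISG15-high cells of the whole sample, 8 were lower and 1 was at least 2-fold lower, PPARGC1A, a coactivator of the fasting response named after its values were seen (-1.28, 0.21 inside the runs). PDK4, of no fixed list, stood at 65.2 against 384 CPM (log2 ratio -2.56), and inside the runs the ratio was 0.10. Its level over all cells was 299, 716, 48.6 and 45.0 CPM in runs 1 to 4, and runs 1 and 2 gave 85 of the 132 ISG15-low cells. PCK1, the entry enzyme of gluconeogenesis, had -0.90 over all cells and 0.21 inside the runs, and G6PC1, which releases free glucose, -0.77 and -0.02. The 11 gluconeogenesis genes had a median of -0.19 over all cells and 0.19 inside the runs. Over all 8406 genes 4399 were higher and 4007 lower. In the other stages 0 gluconeogenesis genes were called (edgeR, with 2 lower and 0 higher at an unadjusted p under 0.05). At that p 317 of all 13764 genes were lower and 329 higher.

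Lipid synthesis genes were higher over all virgin cells and differed little in median inside the runs. Of 18 fatty acid synthesis genes 17 were higher in ISG15-high cells (median 0.32), and inside the runs 10 were (median 0.01). Over all 8406 genes 4399 were higher, and 4568 inside the runs, so the 10 lay near the share of all genes. In the 8 other stages 4 of 19 were higher (median -0.14), beside 7027 of all 13764 genes, and 0 were called by edgeR. At an unadjusted p under 0.05 (edgeR) there were 0 higher and 2 lower, beside 329 and 317 of all genes. FASN, the fatty acid synthase, named after its values were seen, was lower there by DESeq2 (-0.94, adjusted p = 0.00465) and by edgeR with no filter (-0.93, adjusted p = 0.0142). The 2 genes past 2-fold, named after their values were seen, were ACLY, which makes cytosolic acetyl-CoA (1.17, -0.16 inside the runs), and MID1IP1, a partner of acetyl-CoA carboxylase (1.20, 0.28). The cholesterol synthesis list, with 14 of 18 genes higher over all cells, went from a median of 0.36 to 0.07. Inside the runs 15 of its 18 genes were higher, beside 4568 of all 8406. In the 8 other stages 11 of 18 were higher and 0 were called by edgeR. Albumin was at 98267 against 70337 CPM (0.48, 0.08 inside the runs) and CYP2E1, a pericentral cytochrome P450, at 7331 against 5728 CPM (0.36, -0.01).

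**Figure D5:**
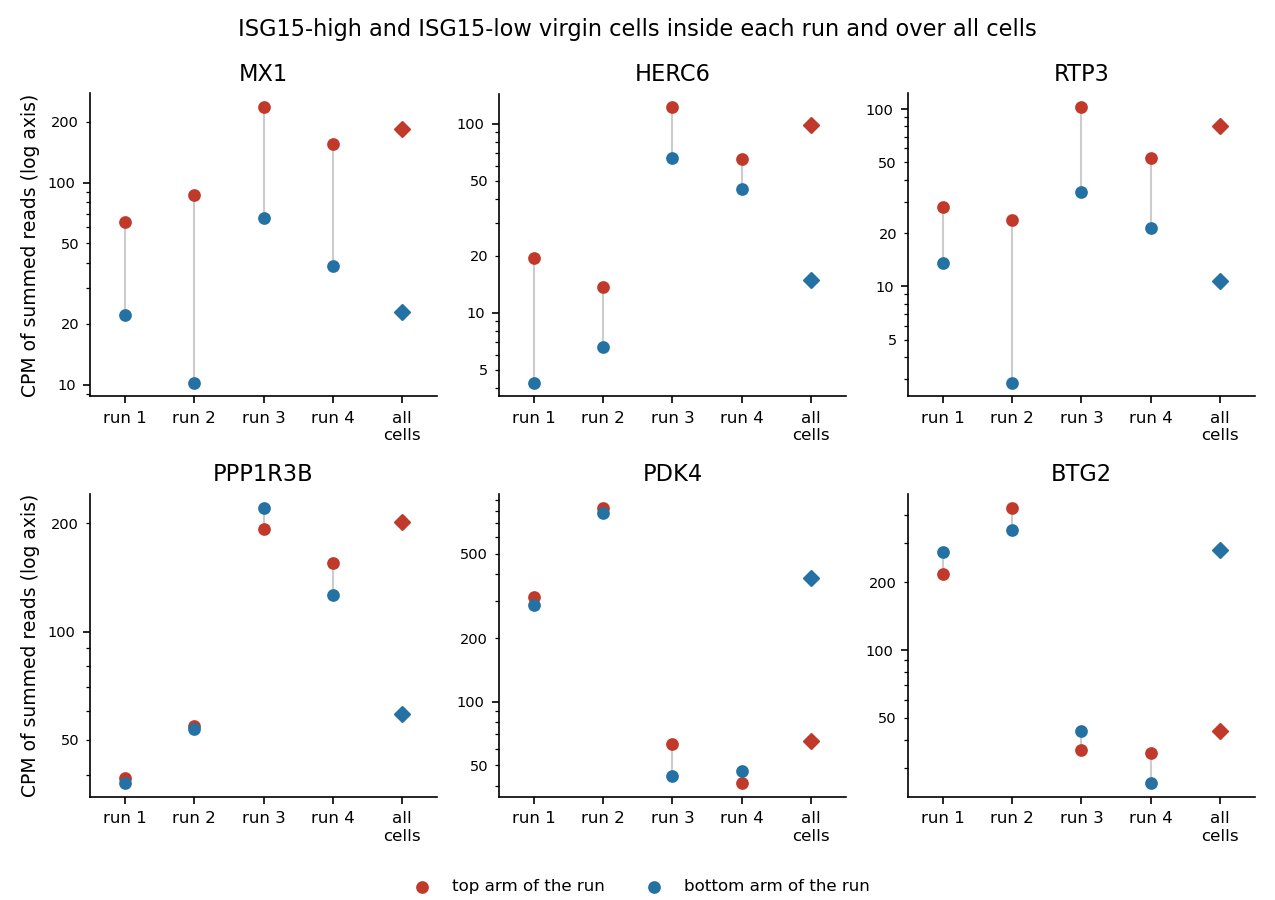
CPM of summed reads on a log axis (vertical) for 6 genes in the top (red) and bottom (blue) arm by ISG15 inside each of the 4 virgin runs (circles) and over all cells (diamonds), each pair of arms scaled by TMM on its own. MX1, HERC6 and RTP3 have the red point above the blue one in all 4 runs, while PPP1R3B, PDK4 and BTG2 differ more between runs than between the arms of a run.

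Immediate early genes, which respond within minutes to stress or handling such as cell isolation, were lower in ISG15-high cells. Of 16 genes of 5 CPM 13 were lower and 6 at least 2-fold, beside 4007 and 307 of all 8406 genes. Inside the runs 8 were lower and none was 2-fold. Of the 16, 1 reached 5 CPM in the ISG15-low arm alone, so the filter fixed its direction. Among the other 15, 3 were higher and 5 at least 2-fold lower. BTG2, an early gene that restrains growth, stood at 43.5 against 278 CPM (-2.67, 0.04 inside the runs), and MYC at 4.06 against 52.6 CPM (-3.69, -0.24). DUSP1, a phosphatase that ends MAP kinase signals, and JUNB, both chosen after their values were seen, had -2.30 (-0.06) and -1.87 (-0.46). SIK1, a kinase induced by cAMP, had -4.85 (0.05), with 1 cell giving 40.9% of its ISG15-low reads. The summed level of the list over all cells was 1939 and 1941 CPM in runs 1 and 2, and 1195 and 1108 CPM in runs 3 and 4. Whether these genes bear on the differences of the others was not tested.

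Acute phase proteins, which the liver secretes in inflammation, were not lower as a group, with 9 of 18 higher in ISG15-high cells and a median of 0.00 (0.09 inside the runs). The 4 genes at least 2-fold lower were named after their values were seen. HAMP, or hepcidin, the hormone that holds iron in cells, had a median of 43.9 CPM in ISG15-high cells (up to 4819) and 702 CPM in ISG15-low cells (up to 8071). Its sum was 296 against 1706 CPM (-2.53), the ratio inside the runs was -0.35, and its level over all cells of a run was 3042 and 1190 CPM in runs 1 and 2, and 369 and 355 CPM in runs 3 and 4. The others were STAT3, the factor that carries interleukin signals (-1.30, -0.28 inside the runs), CEBPD (-1.52, 0.20) and IL1RN (-1.56, -0.14). The fibrinogen chains FGG and FGB had 0.09 (0.13 inside the runs) and 0.22 (0.10).

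Reads of TOP2A, STMN1, SPC24 and KNSTRN, genes of dividing cells, were lower in ISG15-high cells over all cells and inside the runs, and higher in the upper arm when the cells were ranked by the other interferon genes. Of 8 members with a mean of 5 CPM, 6 reached 5 CPM in the ISG15-low arm alone, so that the filter fixed their direction, and no count or median over the 8 is given as a result. The other pair were PCNA and BIRC5, a regulator of cell division, which stood at 12.3 against 47.5 CPM (-1.95, -2.33 inside the runs). With the arms taken by the mean of the 51 other interferon genes, the virgin ratio turned to 3.94 for TOP2A, 3.51 for STMN1, 2.07 for SPC24 and 1.64 for KNSTRN. The difference between the ISG15 arms rests on few cells. Reads of at least 10 of the 15 proliferation genes were found in 13 ISG15-low cells, 1 ISG15-high cell and 9 cells of neither arm, all in runs 2 and 4, and the 13 cells gave 84.5% of the ISG15-low reads of the list. TOP2A, the topoisomerase that untangles chromosomes, stood at 2.03 against 48.0 CPM (-4.56, -5.21 inside the runs) and UBE2C, of the anaphase-promoting pathway, at 1.76 against 63.1 CPM (-5.16, -5.52). The tubulin regulator STMN1 stood at 2.86 against 92.1 CPM (-5.01, -4.61) and had reads in 30.3% and 29.5% of cells, and 1 cell gave 26.7% of its ISG15-low reads. The kinetochore and spindle genes SPC24 and KNSTRN had -3.13 (-3.03 inside the runs) and -3.03 (-3.37). In the 8 other stages 0 of 10 tested members had a log2 fold change above 0 and 0 were called (edgeR, with 1 lower at an unadjusted p under 0.05). Over all 13764 genes 7027 were above 0, and 317 were lower at that p.

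Several single genes at the ends of the ranking rested on few cells, or went under 2-fold or turned inside the runs. GLUL, the glutamine synthetase of the pericentral layer, had 143 against 4.04 CPM (5.14, 0.79 inside the runs), but 1 cell gave 39.5% of the ISG15-high reads. SLC1A2, a glutamate carrier of the same layer, went the other way, with 1.20 against 39.6 CPM (-5.04, 0.64 inside the runs). JCHAIN, the joining chain of antibodies, was at 7.64 against 83.5 CPM (-3.45, -3.34 inside the runs), with 91.8% of the ISG15-low reads in 1 cell, and the ratio was 0.02 without cells that had PTPRC reads. The imprinted genes PEG3 and NNAT had 2.26 (0.10) and 2.27 (-1.66). LGALS9, an interferon-stimulated lectin, had 2.20 over all cells and 0.64 inside the runs, and -0.21 in the 8 other stages. NR0B2, the bile acid induced repressor, had 2.22 (-0.27). On the lower side S1PR3, a receptor of sphingosine 1-phosphate, had -3.55 (0.09), NOCT, a rhythmic phosphatase of nicotinamide dinucleotides, -2.76 (0.57) and ADAP2 -2.71 (0.22).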

How the data were processed

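The authors deposited raw counts per gene and cell. Reads were trimmed with Trimmomatic 0.39, aligned with HISAT2 2.1.0 and counted with featureCounts 2.0.1, per the submitters' processing notes. The genome build and whether molecular identifiers were collapsed are not given in the sources used here. Of 28861 rows, 24 name no gene (0.474% of reads) and were left out of library sizes and tests. All 28837 symbols matched RefSeq's ARS-UI_Ramb_v3.0 table, used for names and neighbours only, and 12262 are LOC symbols. No value was taken from a second deposited table or from the cell sheet, which was read for plates or animals only.

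For each arm, the counts of its cells were added together. For the virgin sample, TMM-scaled CPM and their ratio are given for genes of at least 5 CPM on the mean of both arms, with a count below 3 raised to 3 in ratios. Cells were picked singly, so doublets were not called. For shares of cells and correlations each cell was thinned to 155164 reads (341 of 3404 cells left out, 50 of them virgin). Runs of cell numbers were found from steps in genes outside the interferon lists. In the 8 other stages edgeR 4.0.16 (quasi-likelihood, filterByExpr, TMM, terms stage and arm, Benjamini-Hochberg adjustment) was fitted and first tested on simulated data; both arms of a stage come from that stage's sample, so the stage term pairs them. Alternatives used DESeq2 1.42.0 and limma 3.58.1 in R 4.3.3, with SciPy 1.17.1, pandas 2.3.3, numpy 2.4.6 and matplotlib 3.10.9 under Python 3.11.15.

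Genes named, apart from LOC genes, were up to 12 per direction with the largest virgin ratio (at least 20 CPM and reads in 25% of cells of the higher arm), up to 12 called in the other stages, interferon list members of 5 CPM, up to 4 called or else the 2 highest members of each other list, and the 12 most and 5 least like ISG15. Results for 2 such genes are not reported here. Any other is marked as named after its values were seen. The members and gene lists were chosen with earlier results of these data known.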

Additional observations from a re-analysis of the deposited data

How the results depend on the processing

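In the 8 other stages the count of genes higher in ISG15-high cells (3) came to 16 with no filter on low counts, 1 with no stage term, 1 with all cells split at the middle rank, 6 with arms inside runs, 8 with arms inside blocks of 59 cell numbers and 23 with DESeq2. It ran from 1 to 4 when 1 stage was left out. The count of lower genes (0) came to 8 with no filter, 1 with the split at the middle rank and 11 with DESeq2, and it was 0 whichever stage was left out. The ratio of median reads per cell (1.09) ran from 1.06 to 1.16 with 1 stage left out. Library size only, thinned cells, ties in reverse order, all tied cells kept, equal weight per cell, the score from 51 other genes and cells without PTPRC reads left both counts within 1.5 times the first, but not always with the same genes. Ties in reverse order called MX1 and IFIT1, thinning lost LOC105602911, equal weight called EPSTI1 and not CMPK2, and the score fit, counted without its own 51 genes, called TOP2A and LOC101112122.

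In the virgin sample the genes at least 2-fold higher (234) came to 76 with the split at the middle rank, 88 inside runs and 115 inside blocks, and those lower (307) to 121 with equal weight per cell, 132 with the split at the middle rank, 157 inside runs and 156 inside blocks. The interferon median (0.67) was 0.44 with the split at the middle rank, 0.24 with the score from other genes, which leaves the 51 genes of the score out, and 0.43 inside runs. Direction turned inside runs for SULT1C2 (-0.43), NNAT (-1.66), NR0B2 (-0.27), SLC1A2 (0.64), SIK1 (0.048), S1PR3 (0.090), NOCT (0.57), ADAP2 (0.22) and BTG2 (0.037), inside blocks for NNAT (-0.16) and NR0B2 (-0.15), without PTPRC cells for JCHAIN (0.021), and with the score from other genes for STMN1 (3.51), TOP2A (3.94), SPC24 (2.07), KNSTRN (1.64) and NNAT (-0.052). For these turns the cause was not tested. Of the other values of single genes, 212 kept direction and call, 22 virgin ratios went under 2-fold and 21 fits in the other stages lost the call. The 212 include 24 virgin ratios with ties in reverse order. These could not change, because no tied cells lay at the boundaries of the virgin arms. Runs, blocks and the keeping of tied cells were chosen after seeing the data. Arms inside each plate, animal or batch were not run, because the column names and the cell sheet give none. With 1 sample a stage, cells, animals and plates of a stage cannot be told apart. No paired analysis by replicate number was possible because the numbers only name the stages. The stage term above pairs the arms.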

Other observations

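The few virgin cells rich in proliferation genes stood low in ISG15 and not low in the other interferon genes. The 23 cells with reads of at least 10 of the 15 proliferation genes had a median ISG15 level of 16.0 CPM, against 85.5 CPM in the other 508 cells. Their mean log2(CPM + 1) over the 51 effector and conjugation genes had a median of 3.47 (2.12 to 4.51), against 2.87 in the others. They also had more genes detected, 8169 against 6640, at 413140 against 457700 reads, and 61522 against 85072 CPM of albumin. Inside run 4, which held 19 of them, the medians were 25.6 against 101 CPM of ISG15 and 3.58 against 2.81 for the mean of the 51 genes. These cells were picked by their values, so the comparison carries no test.

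When the cells of the 8 other stages were ranked by the mean of the 51 genes, TOP2A rose in the upper arm with a log2 fold change of 3.91 (adjusted p = 0.000517, edgeR), the opposite direction to its ratio between the ISG15 arms of the virgin sample (-4.56). LOC101112122 rose in the same split by 2.74 (adjusted p = 0.0105, edgeR). These 2 genes were the ones outside the score called in that fit besides ISG15.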
